A study of Mus musculus with 4 samples.

Results

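The 9 genes described here are the set often named together for macrophages of fibrotic and scarred tissue: Spp1, Arg1, Gpnmb, Trem2, Fabp5, Cd9, Cd63, Apoe and Lpl. They were taken as a list of names, 9 of the 32286 features counted, by a rule that uses no measured value, although earlier results of these data were known when the list was made. Their UMIs (unique molecular identifiers, 1 per captured RNA molecule) were summed in each mouse over the cells that pass simple gates. A cell with at least 1 Ptprc UMI (Ptprc encodes CD45, the surface protein of blood-derived cells) was called an alveolar macrophage with at least 1 UMI of Ear2 or Plet1. Failing that, it was called an interstitial macrophage with at least 3 UMIs of C1qa, a monocyte with at least 2 of Ly6c2, or a lymphocyte with at least 1 of Cd3e or Cd79a. Cells without Ptprc were called endothelial, epithelial or fibroblast from Cdh5, Epcam or Pdgfra when they held only 1 of these 3 genes. These names stand for gates, not for clusters.

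Macrophages that enter an injured lung take up lipid and cell debris, and many of them switch on a programme of phagocytic, lysosomal and lipid-handling genes. Spp1 encodes osteopontin, a secreted ligand of integrins and CD44. Arg1 encodes arginase, which turns arginine into ornithine, the precursor of proline and polyamines. Trem2 is a lipid-sensing surface receptor, and Gpnmb is a membrane glycoprotein of lysosomes and phagosomes. Cd9 and Cd63 are tetraspanins of the plasma membrane and of late endosomes. Fabp5 carries fatty acids inside the cell, Apoe encodes an apolipoprotein that takes part in the removal of cholesterol, and Lpl hydrolyses the triglycerides of lipoproteins. In the healthy lung, alveolar macrophages already use several of the lipid genes to clear surfactant.

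Lungs of 2 WT mice and 2 Tubb3-/- mice were analysed, all 14 days after intratracheal bleomycin (0.8 U/kg), an agent that injures the lung and causes fibrosis; there was no group without bleomycin. According to the study's methods, the Tubb3-/- mice carry a Cre knock-in at the Tubb3 start codon on both alleles, so that they lack β-III tubulin, a neuronal tubulin isotype, in every cell; WT mice were littermates, and adult mice of both sexes were used. Each mouse gave whole lung cells, depleted only of TER-119 positive red cells, and mural cell-enriched mesenchymal cells, from which CD31, CD45, EpCAM and TER-119 carrying cells had been removed with beads, so that macrophages in the second kind of library had escaped a depletion. The question is how these 9 genes are spread over the cells of the fibrotic lung, and whether they differ with genotype.

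The 8 libraries, tagged and sequenced in 2 pools, held 32121 cells and between 41462258 and 95036340 gene UMIs each. After limits on genes and mitochondrial RNA and removal of 1839 doublets, 29021 cells and 432646704 UMIs were left, of which 8400 cells were Ptprc-positive. No barcode was shared by libraries of the same pool, and at most 9 were shared across pools. Tubb3 checked the labels, with 0.868 to 5.49 CPM (UMIs of a gene scaled to all gene UMIs of its library or sum) in WT libraries against 0.262 to 0.789 in Tubb3-/- libraries. Xist separated replicate 1 from replicate 2 in both genotypes, at 17.6 and 22.6 CPM against 635 and 649 in whole lung cells, so that sex did not differ between the genotypes.

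The gates held 3657 alveolar macrophages, 343 interstitial macrophages, 387 monocytes, 1663 lymphocytes, 3183 endothelial cells, 656 epithelial cells and 9231 fibroblasts. Marker genes that no gate used were then read in each gate. In the alveolar gate, 8 of 8 alveolar macrophage markers (Marco, Siglecf, Car4 and others) were found, at a summed level of 5015 to 8445 CPM in the 4 mice, and 8 of 8 interstitial markers at 1243 to 1567 CPM. In the interstitial gate this was turned round, with 8 of 8 interstitial markers (C1qb, Mrc1, Cx3cr1 and others) at 11669 to 13220 CPM and 4 of 8 alveolar markers at 240 to 473 CPM. The alveolar gate is not pure. Of its cells, 1070 held a single UMI of Ear2 and Plet1 together and 298 also held at least 3 C1qa UMIs, and neutrophil, epithelial and fibroblast markers stood at 365 to 848, 1372 to 2738 and 899 to 2029 CPM. The part of these other cells in the values of the gate was not tested as a cause; values within subsets of the gate are given below. Monocytes are the least clean gate, with neutrophil markers at 370 to 6649 CPM and epithelial markers at 273 to 13661 CPM.

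In the genome (mm10, GENCODE M21), the 9 members are protein-coding genes on 7 chromosomes. Spp1 lies at chr5:104435118-104441050 (+ strand), Arg1 at chr10:24915221-24927484 (−), Gpnmb at chr6:49036546-49070929 (+), Trem2 at chr17:48346401-48354147 (+) and Fabp5 at chr3:10012548-10016607 (+). Cd9 lies at chr6:125460266-125494791 (−), Cd63 at chr10:128900989-128912822 (+), Apoe at chr7:19696109-19699188 (−) and Lpl at chr8:68880491-68907448 (+). An annotated transcript, Gm42793, overlaps an exon of Spp1 on the same strand, Gm28809 and Gm26728 overlap Cd9 on the other strand, and Fabp5, Cd9 and Cd63 have named copies (Fabp5l2, Cd9-ps and Cd63-ps). Counts of these 4 genes are uncertain to that extent.

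The promoters of Spp1, Gpnmb and Trem2 are shown, which are the member windows that held a match to a motif searched here. RefSeq's table for GRCm38.p6 held 6 of the 9 promoters, each running from 250 bases before the start of transcription to 50 after it; Arg1, Fabp5 and Lpl had no entry. Capitals mark a match to a motif of a macrophage factor, and the windows are Spp1 at chr5:104434861-104435160, Gpnmb at chr6:49036268-49036567 and Trem2 at chr17:48346151-48346450, all on the + strand.
Spp1: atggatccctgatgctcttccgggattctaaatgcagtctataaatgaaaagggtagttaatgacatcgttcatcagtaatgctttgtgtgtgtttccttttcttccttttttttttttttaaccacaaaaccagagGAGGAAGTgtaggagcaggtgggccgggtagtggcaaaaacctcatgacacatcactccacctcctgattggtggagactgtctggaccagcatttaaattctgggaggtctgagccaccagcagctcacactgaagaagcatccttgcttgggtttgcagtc
Gpnmb: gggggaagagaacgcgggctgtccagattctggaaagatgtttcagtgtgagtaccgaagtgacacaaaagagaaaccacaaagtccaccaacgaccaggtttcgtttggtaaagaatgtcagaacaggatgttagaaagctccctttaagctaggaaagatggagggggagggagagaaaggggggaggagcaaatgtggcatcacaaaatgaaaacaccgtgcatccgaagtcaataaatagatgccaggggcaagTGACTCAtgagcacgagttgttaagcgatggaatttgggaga
Trem2: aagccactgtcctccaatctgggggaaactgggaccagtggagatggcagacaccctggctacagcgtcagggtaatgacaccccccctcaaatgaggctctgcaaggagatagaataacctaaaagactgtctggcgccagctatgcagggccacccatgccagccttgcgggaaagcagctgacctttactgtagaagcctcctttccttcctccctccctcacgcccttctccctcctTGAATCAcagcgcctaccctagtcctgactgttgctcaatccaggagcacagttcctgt
Motifs were searched on either strand in 27025 promoters, the first listed of each gene, with 1 chromosome left out. Spp1 and Apoe had 2 and 3 starts in the table, of which only the first was searched. The AP-1 motif TGANTCA was found in Gpnmb and Trem2, from base 259 and base 242 of the window, and in 7.93% of the promoters searched. GAGGAAGT, the letters bound by PU.1, were found in Spp1 from base 138 and in 3.28% of the promoters searched. CACGTG (7.24% of the promoters searched), an E-box of lysosomal regulators, and a STAT6 motif (6.99%) were found in 0 of the 6 member promoters. The matched letters do not overlap each other, no motif was common to all 3 windows, and the windows of Cd9, Cd63 and Apoe held none of the 4 motifs. A match is a description of the sequence, not a bound site.

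Across the 7 cell gates, the members fell into several patterns of level (the plot of levels by gate). Levels below are CPM over the summed UMIs of a gate in 1 mouse, in the order WT replicate 1, WT replicate 2, Tubb3-/- replicate 1, Tubb3-/- replicate 2. Within such a sum, fewer cells of a kind and less RNA per cell cannot be told apart. Each sum joins both kinds of library, and the gates differ in their mix. In interstitial macrophages, 56 of 83, 16 of 74, 53 of 102 and 48 of 84 cells came from whole-cell libraries. In alveolar macrophages, 885 of 892, 807 of 828, 1036 of 1062 and 847 of 875 cells did. Levels of gates therefore differ in library as well as in cells. The order of gates is given per gene, from the mean ± SD over the 4 mice, and genes are not ranked against each other.

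Spp1, the ligand, varied widely between mice. It stood at 1780, 1324, 3976 and 4907 CPM in alveolar macrophages and at 2549, 508, 1264 and 5513 CPM in interstitial macrophages. In the whole-cell libraries alone, interstitial Spp1 was at 3068, 73.6, 1796 and 4886 CPM. In fibroblasts it was at 478, 130, 2534 and 1612 CPM. The lowest and the highest mouse differed several times over in each of these gates, so the order of the means, 2997 ± 1721 in alveolar macrophages, 2459 ± 2203 in interstitial macrophages and 1189 ± 1098 in fibroblasts (SD, n = 4), joins neighbours whose ranges overlap. Endothelial cells had 135, 113 and 124 CPM in 3 mice and 900 CPM in Tubb3-/- replicate 1. Monocytes, lymphocytes and epithelial cells stayed at 73.7 to 127 CPM in all mice. The monocyte values, 87.6 to 115 CPM, overlapped those of lymphocytes, 89.4 to 127 CPM. Lymphocytes, almost all of them from whole-cell libraries, serve as the comparison level for free RNA below. That they make none of the RNA was not tested, and single lymphocytes held up to 54 Spp1 UMIs.

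Arg1, the enzyme, was rare. It stood at 9.21, 6.70, 29.0 and 32.6 CPM in alveolar macrophages and at 55.3, 2.07, 12.4 and 33.1 CPM in interstitial macrophages, 2 gates that overlap in range. Interstitial Arg1 came from 2, 2, 6 and 7 cells, with 48 UMIs in 1 cell of WT replicate 1. In the sums of lymphocytes it was at 2.22 ± 0.751 CPM (SD, n = 4), and no alveolar macrophage sum reached down to that level. Monocytes held 1 UMI in each of 2 mice and 0 UMIs in the other two, where a count of 0 allows up to 3.16 and 3.75 CPM. In fibroblasts, Arg1 lay between 0.265 and 0.497 CPM, so the fibroblast sums that held Spp1 held almost no Arg1.

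The receptor Trem2 and the glycoprotein Gpnmb followed macrophages most closely. Trem2 was at 437, 383, 502 and 484 CPM in interstitial macrophages, at 117, 138, 199 and 248 CPM in alveolar macrophages and at 17.2, 26.4, 22.5 and 44.2 CPM in monocytes, with no overlap between these neighbours, while the other 4 gates had at most 5.91 CPM. Gpnmb was at 273, 190, 209 and 287 CPM in interstitial and at 86.1, 156, 167 and 212 CPM in alveolar macrophages, which overlap, and at 13.8 to 26.5 CPM in fibroblasts, the next gate. In the whole-cell libraries alone, interstitial Gpnmb was at 363, 4.90, 299 and 217 CPM. The value of WT replicate 2 there is 1 UMI.

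The lipid genes each had their own order. Apoe, the apolipoprotein, stood at 22986, 26345, 27018 and 15886 CPM in interstitial macrophages, far from fibroblasts (1759 to 2326 CPM) and alveolar macrophages (1510 to 2534 CPM), which overlap. In the whole-cell libraries alone, alveolar Apoe was at 1398, 580, 1835 and 1865 CPM. Monocytes had 662 to 1317 CPM and lymphocytes 275 to 446 CPM of Apoe. Fabp5, the fatty acid carrier, was at 534, 582, 955 and 970 CPM in alveolar macrophages and at 499, 295, 476 and 658 CPM in interstitial macrophages. Epithelial cells came next with 191 to 244 CPM of Fabp5, apart from both neighbours. Lpl, the lipase, was at 722, 1344, 853 and 1014 CPM in alveolar macrophages; interstitial macrophages (171 to 749 CPM), fibroblasts (197 to 416 CPM) and endothelial cells (207 to 350 CPM) followed with overlapping ranges, and monocytes, lymphocytes and epithelial cells had at most 65.0 CPM.

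The tetraspanins were the most widely spread members. Cd9 was at 1996, 2657, 2045 and 2209 CPM in alveolar macrophages, above every sum of the other gates. Epithelial cells (781 to 947 CPM), endothelial cells (829 to 899 CPM) and interstitial macrophages (635 to 911 CPM) overlapped in Cd9. Cd63 did not set macrophages apart: interstitial macrophages (721 to 1080 CPM), fibroblasts (716 to 1050 CPM), alveolar macrophages (455 to 775 CPM) and epithelial cells (513 to 691 CPM) each overlapped the next.

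**Figure D1:**
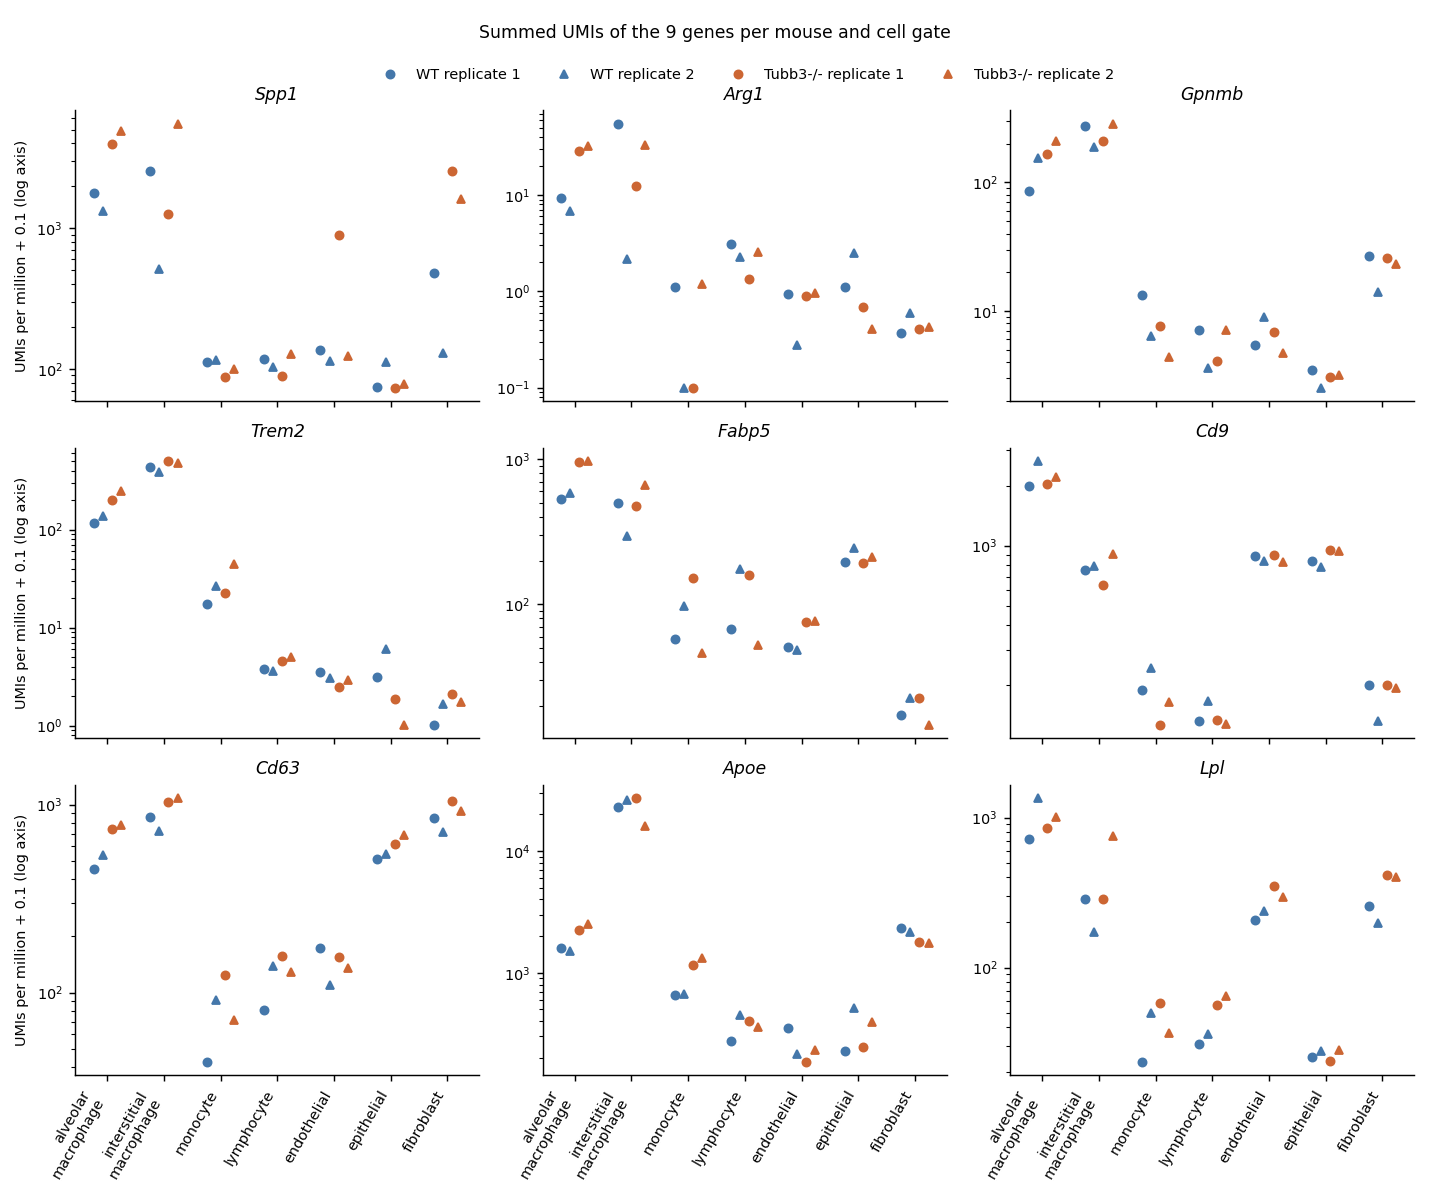
Level of each of the 9 genes (CPM on a log axis, with a small constant added so that 0 can be drawn) in the 7 gates, 1 point per mouse, with WT and Tubb3-/- mice in separate colours and the 2 replicates as separate symbols. Trem2 stands at 117 to 502 CPM in the 2 macrophage gates and at most at 44.2 CPM elsewhere, whereas Cd9 and Cd63 stand at 781 to 947 and 513 to 691 CPM in epithelial cells.

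The share of each gene's UMIs shows which cells supply it (the plot of UMI shares). In the whole-cell libraries, alveolar macrophages were 26.6% of the cells and held 87.0% of the Trem2, 81.7% of the Gpnmb, 70.2% of the Spp1 and 69.4% of the Arg1 UMIs. Interstitial macrophages were 1.29% of the cells and held 19.3% of the Apoe and 8.69% of the Trem2 UMIs. Fibroblasts, 12.0% of the cells, held 13% of Spp1. In the mural cell-enriched libraries, where CD45-positive cells had been depleted, fibroblasts were 48.8% of the cells and held 60.2% of the Spp1, 76.0% of the Lpl and 65.4% of the Cd63 UMIs. Even there, alveolar macrophages, at 0.526% of the cells, held 61.5% of the Arg1 and 48.3% of the Trem2 UMIs. These shares pool the 4 mice and depend on how many cells of each kind were loaded.

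**Figure D2:**
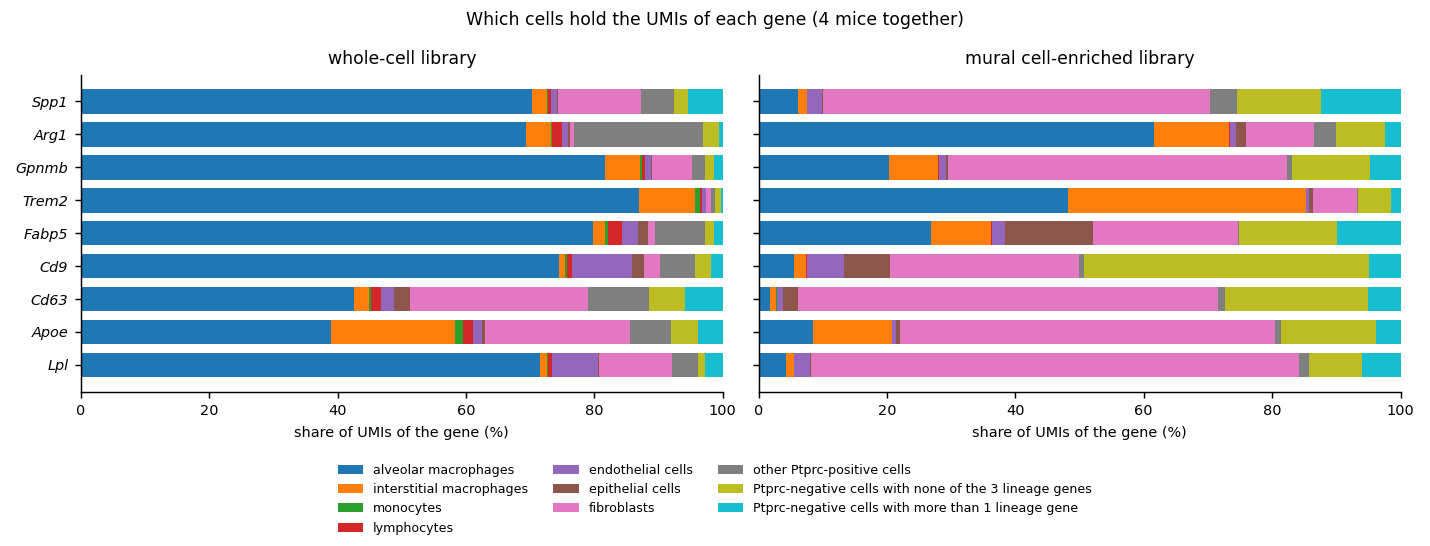
Share of the UMIs of each gene (percent, 4 mice together) held by each gate in the whole-cell libraries (left) and the mural cell-enriched libraries (right); colours are gates and each bar adds to 100. Alveolar macrophages hold most UMIs of Spp1, Arg1, Gpnmb, Trem2, Fabp5, Cd9 and Lpl on the left, and fibroblasts hold 60.2% of Spp1 on the right.

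Interstitial and alveolar macrophages were compared within the same mice, over sums that differ in their mix of libraries. Of the 9 members, 4 were higher in interstitial macrophages, 3 were lower and 2 (Spp1 and Arg1) were not called, where 26.2% of 13503 genes were called, 11.7% higher and 14.5% lower (edgeR's quasi-likelihood test with mouse as a block, Benjamini-Hochberg adjustment over all genes, threshold 0.05). Apoe was higher by 3.69 on the log2 scale (SE 0.23, adjusted p = 1.37e-05), Trem2 by 1.55 (SE 0.15, adjusted p = 0.000119), Gpnmb by 0.81 (SE 0.22, adjusted p = 0.0273) and Cd63 by 0.70 (SE 0.10, adjusted p = 0.00116). Cd9 had a log2 fold change of -1.39 (SE 0.09, adjusted p = 1.72e-05), Lpl of -1.41 (SE 0.33, adjusted p = 0.0136) and Fabp5 of -0.53 (SE 0.15, adjusted p = 0.0307). Spp1, at -0.45 (SE 0.34, adjusted p = 0.396), and Arg1, at 0.45 (SE 0.59, adjusted p = 0.640), had errors close to or above the difference. The calls of Gpnmb, Cd63 and Fabp5 depend on the settings: in the whole-cell libraries alone, where WT replicate 2 gave only 16 interstitial cells, their adjusted p were 0.548, 0.123 and 0.283. The call of Fabp5 was also lost without WT replicate 2 (0.127), Tubb3-/- replicate 1 (0.128) or Tubb3-/- replicate 2 (0.0825), and that of Gpnmb without Tubb3-/- replicate 2 (0.0557) or with doublets kept (0.0801). Fabp5 also lost its call in cells of exactly 1 immune gate (0.131), without the mouse block (0.171) and with at least 5 UMIs of Ear2 and Plet1 for the alveolar gate (0.352).

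Against monocytes, 8 of 8 members tested were higher in interstitial macrophages, where 39.8% of 8381 genes were called and 19.5% were called higher. The log2 fold changes ran from 2.22 for Cd9 (adjusted p = 3.39e-05) to 5.02 for Gpnmb (SE 0.24, adjusted p = 8.72e-06). Spp1 was higher by 4.2 (SE 0.55, adjusted p = 0.000729), Trem2 by 4.16 (adjusted p = 1.15e-05) and Apoe by 4.74 (adjusted p = 2.07e-05). Arg1 did not pass the filter on low counts there. All these p-values are from edgeR with mouse as a block.

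Lists of related genes gave the surroundings of the members in the 2 macrophage gates. The counts stand beside 11.7% of all genes called higher and 14.5% called lower, and with lists this short several are near those shares. Of 20 lipid-associated macrophage genes, 8 were higher and 3 lower in interstitial than in alveolar macrophages, among them Syngr1 (log2 fold change 1.69), Emp1 (1.57) and the protease Ctsk (-2.28). Of 8 genes of Trem2 signalling and lysosome regulation, 5 were higher and 0 lower, led by the phosphatase Inpp5d (0.88) and the lysosomal transcription factors Tfe3 (0.78) and Mitf (0.74). Of 9 osteopontin receptors, 5 were higher and 2 lower, with the integrin chains Itga9 (3.14), Itgb5 (1.32) and Itga5 (1.15) in front. Of 8 tetraspanins, 4 were higher and 0 lower, led by Cd81 (1.52), Tspan4 (1.32) and Tspan3 (1.30). Of 15 genes of lipid uptake and efflux, 2 were higher and 7 lower, led by Gpihbp1 (-2.64), Abcg1 (-2.38), a cholesterol exporter, and Angptl4 (-2.01), an inhibitor of lipoprotein lipase. Of 10 arginine and polyamine enzymes and transporters tested, 1 was higher, Asl (0.51), and 2 were lower, the transporter Slc7a2 (-2.50) and Ass1 (-1.73), both of which supply arginine. Growth factors and matrix genes had 7 of 10 higher and 0 lower, led by the chemokines Ccl7 (4.09) and Ccl2 (3.53) and by Pdgfb (2.25). Genes of alternative activation had 6 of 11 higher and 2 lower; Cd163 (5.70) and Folr2 (5.63) mark resident interstitial macrophages and Chil3 (-5.82) alveolar macrophages. Of 6 macrophage growth factors and receptors, Csf1r was higher (2.56) and Flt3 (-2.26) and Csf2rb (-1.24) were lower. The part of other cells of the alveolar gate in these list values was not tested. Against monocytes, 18 of the 20 lipid-associated genes were higher in interstitial macrophages and 0 lower, where 19.5% of all genes were higher.

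The alveolar gate holds cells of different kinds, and the members divided among them unequally (the plot of the alveolar gate in 4 subsets). The 1849 cells with at least 5 UMIs of Ear2 and Plet1 and fewer than 3 of C1qa held Spp1 at 1740, 1407, 2952 and 4046 CPM. A smaller subset of 203 cells combined at least 5 UMIs of Ear2 and Plet1 with at least 3 of C1qa, and in it Spp1 reached 7675, 13573, 16545 and 16946 CPM. These 203 cells were 5.55% of the gate and held 39.4% of its Spp1 and 46.8% of its Arg1 UMIs. They were 5.16%, 0.966%, 8.57% and 6.63% of the gate in the 4 mice, so WT replicate 2 gave only 8 of them. Arg1 there stood at 38.3, 17.2, 121 and 166 CPM, and Apoe at 9585 to 25147 CPM, a range that overlaps that of the interstitial gate. The 1510 cells with 1 to 4 UMIs of Ear2 and Plet1 and fewer than 3 of C1qa were 41.3% of the gate and held 4.87% of its Spp1 and 3.37% of its Arg1; Trem2 was at 9.90 CPM in WT and 8.87 CPM in Tubb3-/- mice there. The last 95 cells, with 1 to 4 UMIs and at least 3 of C1qa, held 5.71% of the Spp1. Cells that pass the alveolar and the interstitial markers together therefore carry a share of Spp1 and Arg1 several times their share of cells, and the gate order placed them with alveolar macrophages.

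**Figure D3:**
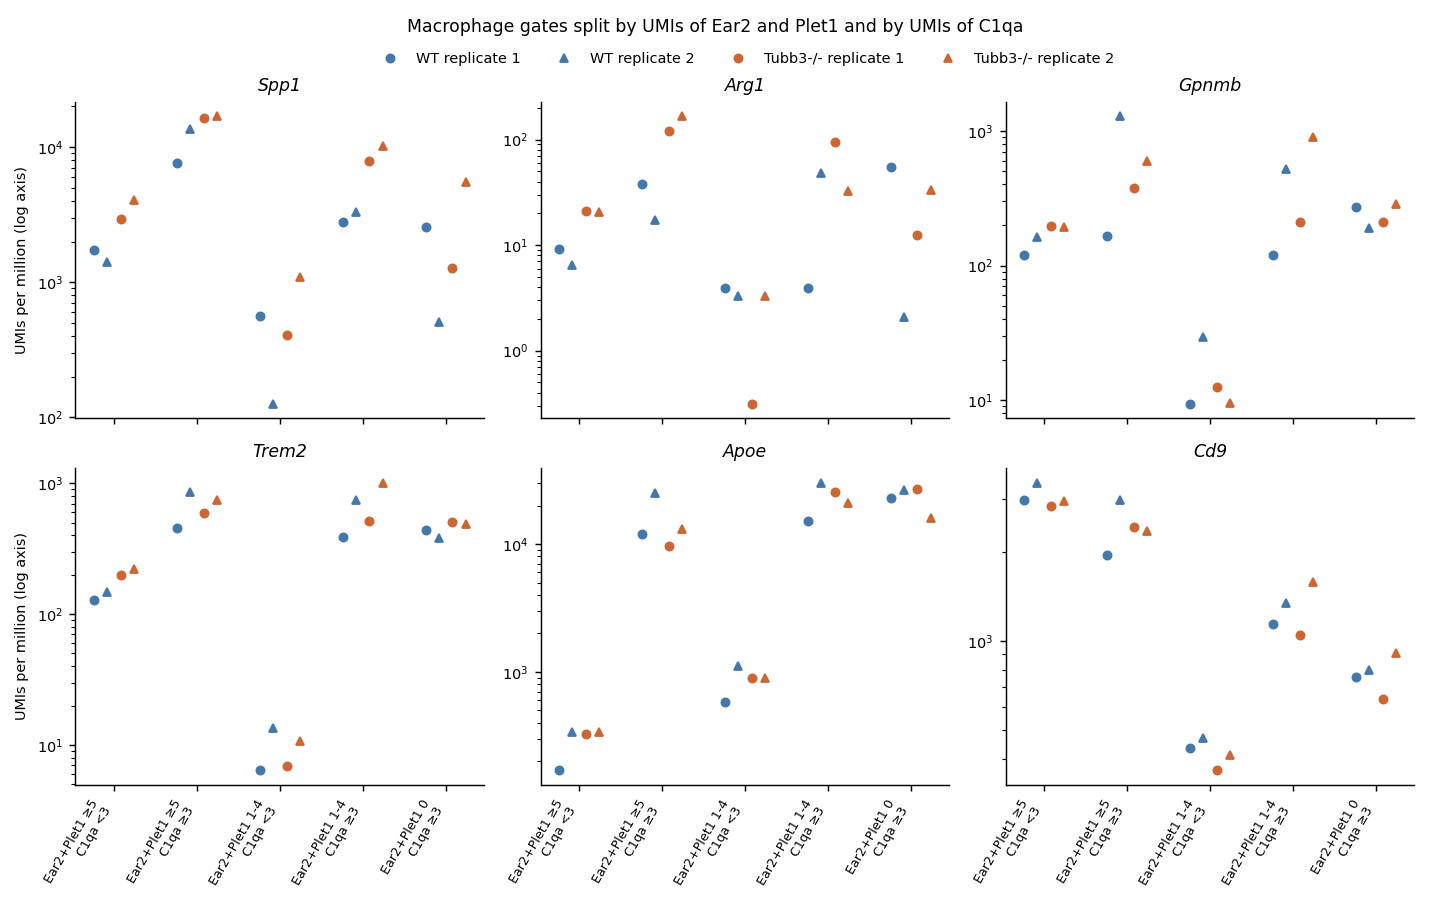
Levels of 6 members (CPM, log axis) in the 4 subsets of the alveolar gate set by UMIs of Ear2 and Plet1 together (1 to 4, or at least 5) and of C1qa (under 3, or at least 3), with the interstitial gate (0 UMIs of Ear2 and Plet1) at the right, 1 point per mouse. Spp1 lies at 7675 to 16946 CPM in the subset that is high in both, above the 1407 to 4046 CPM of the subset with low C1qa.

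In alveolar macrophages, each Tubb3-/- mouse lay above each WT mouse for 7 of the 9 members, namely Spp1, Arg1, Gpnmb, Trem2, Fabp5, Cd63 and Apoe, where 18.5% of the 15229 genes tested showed this order. None of them passed the test across all genes: edgeR's quasi-likelihood test called 0 members and 0 genes (0.0%) at an adjusted p under 0.05, with 1282 genes (8.42%) under an unadjusted p of 0.05, while DESeq2 called 96 genes. Of the 9 members, 6 had an unadjusted p under 0.05. Their median log2 fold change (Tubb3-/- over WT) was 0.67, and the median of all genes was 0.00.

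Spp1 went from a mean of 1552 ± 323 CPM in WT to 4441 ± 658 CPM in Tubb3-/- mice (SD, n = 2 each), and the log2 fold change was 1.53 (SE 0.23, adjusted p = 0.469, edgeR). Arg1 stood at 7.95 ± 1.77 and 30.8 ± 2.56 CPM, a log2 fold change of 1.96 (SE 0.20, adjusted p = 0.349). Both genes therefore differed by more than the spread between the 2 mice of a genotype without a call in a test of 15229 genes. Trem2 had a log2 fold change of 0.83 (SE 0.14, adjusted p = 0.469), Fabp5 of 0.80 (SE 0.10, adjusted p = 0.349), Gpnmb of 0.67 (SE 0.28, adjusted p = 0.601), Apoe of 0.64 (SE 0.13, adjusted p = 0.469) and Cd63 of 0.63 (SE 0.11, adjusted p = 0.469). Cd9 (-0.11, SE 0.16) and Lpl (-0.12, SE 0.29) had no order by genotype. In the whole-cell libraries alone, Apoe was at 989 ± 579 CPM in WT and 1850 ± 20.7 CPM in Tubb3-/- mice (SD, n = 2 each). In the joined sums Apoe was at 1556 ± 64.6 and 2395 ± 196 CPM. The spread of Apoe between the WT mice thus depends on the mix of libraries. With DESeq2 in place of edgeR, the adjusted p were 2.65e-09 for Arg1, 1.72e-08 for Spp1, 3.16e-06 for Fabp5, 0.00277 for Trem2, 0.00543 for Cd63, 0.0116 for Apoe and 0.543 for Gpnmb. Leaving out each mouse in turn gave log2 fold changes of 1.30 to 1.79 for Spp1 and 1.72 to 2.25 for Arg1. In cells that pass only 1 immune gate, Spp1 was at 1.08 and Arg1 at 1.27. Cells of this gate were also deeper in Tubb3-/- mice, at a median of 21406 and 20519 UMIs against 17176 and 18160, and fibroblast markers were highest in Tubb3-/- replicate 1; their part in the difference was not tested.

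The same order by genotype was seen inside the main subset of the gate, the 1849 cells with at least 5 UMIs of Ear2 and Plet1 and low C1qa. Spp1 stood at 1573 ± 236 CPM in WT and 3499 ± 774 CPM in Tubb3-/- mice (SD, n = 2 each), 2.22-fold, and Arg1 at 7.79 ± 1.90 and 20.8 ± 0.369 CPM. Trem2, Fabp5, Gpnmb and Cd63 kept both Tubb3-/- mice above both WT mice there, Apoe overlapped, and Cd9 was lower in both Tubb3-/- mice (2906 ± 91.2 CPM against 3199 ± 303 CPM). In the 203 cells high in both kinds of marker, of which WT replicate 2 gave only 8, Spp1 and Arg1 were higher in both Tubb3-/- mice. The other 7 members overlapped there. The order did not hold in the 1510 cells with 1 to 4 UMIs and low C1qa, where Spp1 was at 559 and 126 CPM in WT against 410 and 1088 CPM in Tubb3-/- mice, and Arg1 at 3.96 and 3.28 against 0.315 and 3.31 CPM. In the 95 cells with 1 to 4 UMIs and at least 3 of C1qa, Spp1 was higher in both Tubb3-/- mice (2806 and 3336 against 7870 and 10218 CPM), and Arg1 overlapped (3.92 and 48.5 against 95.2 and 32.8 CPM). All these subsets are cells of the same mice, and the share of all genes with such an order was not counted within them. Asking for 5 UMIs of Ear2 and Plet1 in the whole gate, a choice made after seeing the data, gave Spp1 at 2380, 1659, 5280 and 6036 CPM, with a log2 fold change of 1.54 (SE 0.23, adjusted p = 0.202, edgeR).

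In interstitial macrophages, 3 of the 9 members (Trem2, Cd63 and Lpl) were higher in both Tubb3-/- mice, where 20.4% of 8567 genes showed this order. No member was called, and no gene was (0.0%, edgeR; 486 genes or 5.67% under an unadjusted p of 0.05; 0 genes with DESeq2). Lpl had a log2 fold change of 1.13 (SE 0.44, unadjusted p = 0.0341, adjusted p = 0.858, edgeR). Spp1, at 1.09 (SE 0.80, adjusted p = 0.932, edgeR), turned with single mice, from -0.32 without Tubb3-/- replicate 2 to 2.76 without WT replicate 1. Arg1 was at -0.46 (SE 0.94), and leaving out a mouse moved it between -1.40, without WT replicate 2, and 3.39, without WT replicate 1. In WT replicate 1, 1 cell held 48 Arg1 UMIs. With no filter on low counts, edgeR called Spp1 (adjusted p = 3.98e-05) and Lpl (adjusted p = 8.39e-05) at nearly the same fold changes. The 74 to 102 cells per mouse do not settle a genotype difference of either gene in this gate.

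Whether the genotype difference itself differs between the 2 macrophage gates was tested with an interaction term. No member was called, where 0.0069% of 14501 genes were. Among the members, Apoe had the smallest unadjusted p, 0.00947, with a difference of -0.89 (SE 0.27, adjusted p = 0.670, edgeR), from 0.64 in alveolar to -0.23 in interstitial macrophages. Arg1 (-2.14, SE 0.87) and Trem2 (-0.56, SE 0.23) had adjusted p of 0.919. With no filter on low counts, Apoe (adjusted p = 4.38e-07) and Arg1 (adjusted p = 8.52e-05) were called. Between interstitial macrophages and monocytes, edgeR called 0 of 9432 genes (0.0%; DESeq2 called 24), and Apoe was at -1.15 (SE 0.25, adjusted p = 0.254).

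In the other immune gates no member was called by genotype with edgeR. Monocytes had 662 and 674 CPM of Apoe in WT and 1169 and 1317 CPM in Tubb3-/- mice, which is 0.88 on the log2 scale (SE 0.19, adjusted p = 0.285, edgeR), and 0 of the 7 members tested were called, where 0.0712% of 8432 genes were. In lymphocytes 0 members were called (0.0% of genes by edgeR, with 766 genes or 6.36% under an unadjusted p of 0.05 and 28 genes by DESeq2), and Lpl was at 0.82 (SE 0.17, adjusted p = 0.586). Over all 8400 Ptprc-positive cells together, Spp1 stood at 1208 and 900 CPM in WT against 3170 and 3431 CPM in Tubb3-/- mice, which is 1.64 on the log2 scale (SE 0.20, adjusted p = 0.216, edgeR). Arg1 was at 1.27 (SE 0.18), Fabp5 at 0.74 (SE 0.08), Trem2 at 0.73 (SE 0.12) and Cd63 at 0.59 (SE 0.08), each with the same adjusted p of 0.216. DESeq2 called these 5 genes, and edgeR with no filter on low counts called Spp1 (adjusted p = 0.0242), Arg1 (0.0449) and Fabp5 (0.0399). edgeR called 0 members and 0.0% of 16822 genes there, 2179 genes (13%) had an unadjusted p under 0.05, and DESeq2 called 332 genes. The alveolar gate was 41.0% to 44.9% of the Ptprc-positive cells in each mouse. It held 225253 of the 269277 Spp1 UMIs of all Ptprc-positive cells, so the values of this set are not separate from those of the alveolar gate.

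**Figure D4:**
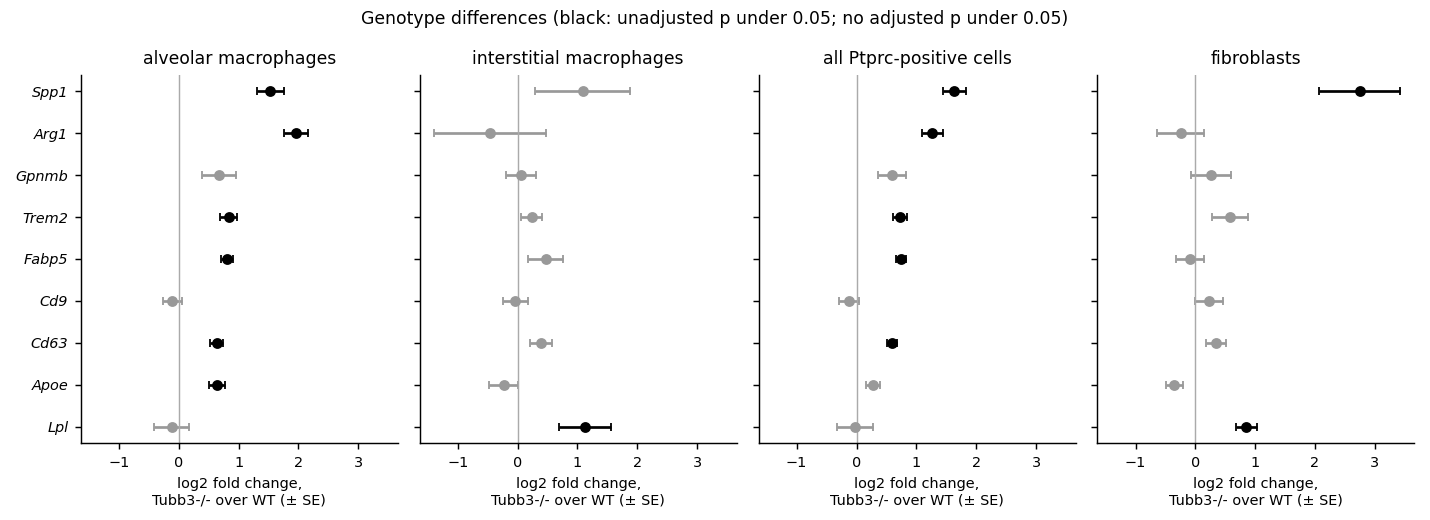
Log2 fold change of each member, Tubb3-/- over WT, with its standard error from edgeR, in alveolar macrophages, interstitial macrophages, all Ptprc-positive cells and fibroblasts; black points have an unadjusted p under 0.05, and none has an adjusted p under 0.05. Spp1 lies at 1.53 in alveolar macrophages and 2.75 in fibroblasts, while Cd9 stays near 0 in the 3 immune panels.

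Among the lists, 0 genes were called by genotype in alveolar, interstitial or all Ptprc-positive cells with edgeR. Of the 20 lipid-associated macrophage genes, 17 had a log2 fold change above 0 in alveolar macrophages (50.4% of all genes did), 10 of them with an unadjusted p under 0.05 (8.42% of all genes had one), and the median was 0.32 against 0.00 for all genes. In interstitial macrophages and all Ptprc-positive cells 17 of 20 were above 0 (49% and 50.4% of all genes), 2 and 9 of them under an unadjusted p of 0.05 (5.67% and 13% of all genes). All Ptprc-positive cells include the alveolar gate, so their count is not separate from the alveolar one. In fibroblasts 10 of 20 were above 0 (48.8% of all genes). In alveolar macrophages, unadjusted p under 0.05 were found for 5 higher and 1 lower of 10 growth factors and matrix genes, 2 higher and 1 lower of 15 lipid uptake and efflux genes, and 1 higher and 1 lower of both the 8 Trem2 signalling genes and the 9 osteopontin receptors. The tetraspanins and the genes of alternative activation had 1 higher each, and the arginine enzymes and the macrophage growth factors and receptors had 0; counts of 1 in lists of 8 to 11 genes are near the 8.42% of all genes. Genes chosen after their values were seen include the elastase Mmp12, at 139, 57.7, 216 and 558 CPM (log2 fold change 1.98, SE 0.63), and the cathepsin Ctsl, at 284, 340, 485 and 603 CPM (0.82, SE 0.15), neither of which passed adjustment.

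Most Spp1 came from a small number of cells. In alveolar macrophages the median cell held 2, 3, 3 and 3 Spp1 UMIs, and the highest held 2026, 1268, 6537 and 4153. Cells with at least 100 Spp1 UMIs, called Spp1-high below, were 399 of 3657 (10.9%) and held 83.9% of the Spp1 UMIs of the gate. They were 6.50% and 4.95% of the gate in WT mice (5.73% ± 1.10, SD, n = 2) and 16.1% and 14.7% in Tubb3-/- mice (15.4% ± 0.961, SD, n = 2). Without these cells the level was 539, 628, 625 and 680 CPM, a range in which the genotypes overlap; since the cells were left out by their own Spp1 count, which caps the level of the rest, this overlap does not show where the difference lies. Scaling by depth, with a limit of 5000 CPM of Spp1 in a cell in place of 100 UMIs, gave 4.93%, 3.38%, 13.7% and 11.8%. An exact permutation test over 2 against 2 mice cannot give a two-sided p under 0.33.

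Interstitial macrophages had 18 Spp1-high cells (6, 1, 3 and 8), which held 94.0%, 26.4%, 77.5% and 97% of the Spp1 of the gate in the 4 mice. Without them the level was between 178 and 387 CPM. No Spp1-high cell was found among 387 monocytes, which allows a share of up to 0.775%, or among 1663 lymphocytes, which allows up to 0.180%. In endothelial cells, 5 cells of Tubb3-/- replicate 1 were Spp1-high; that mouse stood at 900 CPM with them and at 91.6 CPM without them.

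**Figure D5:**
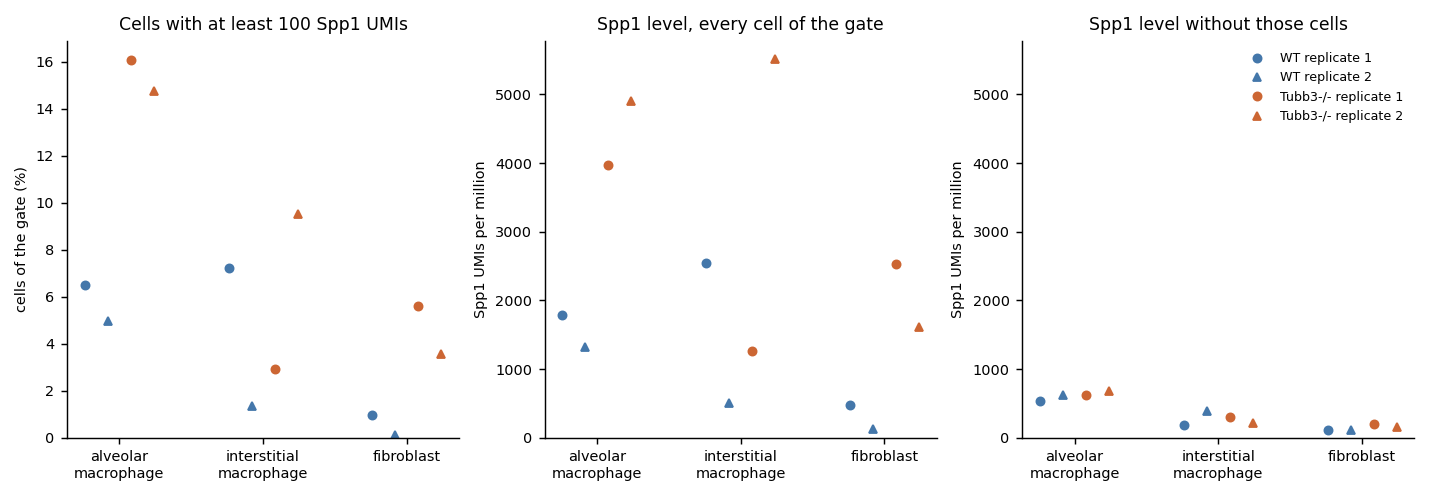
Left, share of cells with at least 100 Spp1 UMIs (percent); middle, Spp1 level (CPM) over every cell of the gate; right, the level without those cells, on the same axis; 1 point per mouse in alveolar macrophages, interstitial macrophages and fibroblasts. Both Tubb3-/- mice lie above both WT mice in the left and middle panels for alveolar macrophages and fibroblasts, and alveolar macrophages without Spp1-high cells lie between 539 and 680 CPM, a level capped by leaving cells out on their own Spp1 count.

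Spp1-high cells held more of the other members. As a description, since the same cells chose and show the values, the 399 Spp1-high alveolar macrophages were set against 2380 cells of the gate with fewer than 10 Spp1 UMIs. Arg1 stood at 91.6 against 2.95 CPM, Gpnmb at 422 against 33.6, Trem2 at 506 against 42.7, Fabp5 at 2114 against 187, Apoe at 6514 against 1218, Lpl at 1708 against 331, Cd63 at 1452 against 287 and Cd9 at 3489 against 927 CPM. The median cell of the first group had 29955 UMIs and of the second 14099, so depth and doublets move with this contrast and their part was not tested. Genes in front outside the list were Mmp12 (892 against 73.1 CPM) and the lysosomal protease Ctsd (7154 against 898 CPM). The 18 Spp1-high interstitial cells showed the same members, with Arg1 at 183 against 4.43 CPM, Gpnmb at 1356 against 73.5 and Fabp5 at 2739 against 110 CPM in 302 low cells, and Atp6v0d2, a subunit of the proton pump, at 590 against 14.1 CPM.

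Arg1 was found in 213 alveolar macrophages, 4.82%, 3.02%, 8.19% and 6.63% of the cells per mouse. Of these, 117 were Spp1-high, 54.9% of the cells with Arg1 and 29.3% of the Spp1-high cells. Among Spp1-high cells, 29.3%, 24.4%, 31.6% and 27.9% held an Arg1 UMI in the 4 mice, against 3.12%, 1.91%, 3.70% and 2.95% of the others. The share of Arg1 among Spp1-high cells thus lay in the same range in both genotypes. In interstitial macrophages, 7 of 18 Spp1-high cells held Arg1, and in fibroblasts 5 of 261 (1.92%).

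Shares of cells with a UMI were compared after each cell was thinned to 2000 UMIs. Spp1 was found in 39.4%, 45.7%, 47.9% and 50.3% of alveolar macrophages (79.1% to 83.2% before thinning) and in 20.3%, 20.6%, 19.2% and 24.6% of lymphocytes. Arg1 was found in 0.675%, 1.21%, 3.40% and 2.30% of alveolar macrophages and in 0.192% to 0.699% of lymphocytes. Trem2 was at 11.8%, 15.7%, 20.5% and 20.4%, and Gpnmb at 8.89%, 13.3%, 15.6% and 14.0%, of alveolar macrophages. Over 63 exact two-sided permutation tests (9 genes in 7 gates), the smallest p possible was 0.33, reached by 25, and the smallest adjusted p was 0.84. Before thinning, the median cell held 17176 to 21406 UMIs in alveolar macrophages and 5686 to 6299 in lymphocytes; 17 alveolar macrophages and 17 lymphocytes under 2000 UMIs were left out.

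Fibroblasts were the other source of Spp1. Spp1 stood at 304 ± 246 CPM in WT and 2073 ± 652 CPM in Tubb3-/- mice (SD, n = 2 each), 6.82-fold, with a log2 fold change of 2.75 (SE 0.67, adjusted p = 0.154, edgeR), and was higher in both Tubb3-/- mice. Lpl stood at 226 ± 41.9 and 410 ± 8.58 CPM, a log2 fold change of 0.85 (SE 0.18, adjusted p = 0.134). Apoe was lower in both Tubb3-/- mice, at 1766 ± 9.08 against 2252 ± 105 CPM (log2 fold change -0.35, SE 0.15, adjusted p = 0.274). Of the 9 members, 4 (Spp1, Trem2, Cd63 and Lpl) were higher in both Tubb3-/- mice, where 23.8% of 16920 genes were, and 1 (Apoe) was lower in both, where 25.5% were. No member and no gene (0.0%) was called by edgeR, 3313 genes (19.6%) had an unadjusted p under 0.05, and DESeq2 called 846 genes. The calls of Spp1 and Lpl depend on the settings: with no filter on low counts their adjusted p were 0.0219 and 0.0180, without WT replicate 1 they were 0.000981 and 0.00360 and without WT replicate 2 0.0109 and 0.0359, but without Tubb3-/- replicate 1 and replicate 2 that of Spp1 was 0.510 and 0.187. DESeq2 gave 0.0547 for Spp1 and 0.000651 for Lpl. Within the mural cell-enriched libraries Spp1 was at 518, 143, 2477 and 1792 CPM, and within the whole-cell libraries at 234, 67.4, 2788 and 687 CPM.

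Spp1-high fibroblasts were 261 of 9231 cells (2.83%). They were 0.960% and 0.100% of the fibroblasts in WT mice (0.530% ± 0.608, SD, n = 2) and 5.62% and 3.55% in Tubb3-/- mice (4.59% ± 1.46, SD, n = 2). They held 76.0%, 11.4%, 92.9% and 90.7% of the Spp1 of the gate. The other fibroblasts, whose level is capped in the same way, had 117, 115, 196 and 158 CPM, higher in both Tubb3-/- mice. The WT values lie within the 89.4 to 127 CPM of lymphocytes and the Tubb3-/- values above it. This comparison crosses pools. Whole-cell libraries gave 346 of 2083, 363 of 1995, 507 of 2705 and 399 of 2448 fibroblasts. They gave 480 of 489, 276 of 288, 511 of 522 and 350 of 364 lymphocytes. The level of free RNA in the mural cell-enriched pool was not measured. In these 261 cells Arg1 was at 1.36 CPM, Gpnmb at 31.9 and Trem2 at 7.76 CPM, each above the 0.293, 21.9 and 1.29 CPM of the 8690 fibroblasts with fewer than 10 Spp1 UMIs. Macrophage markers were higher too, with Marco at 0.370 against 0.232 CPM, Cd68 at 6.04 against 2.47 CPM and C1qb at 26.7 against 6.04 CPM. A Marco UMI was found in 1.15% against 0.403% and a C1qb UMI in 9.96% against 8.85% of the cells. Lyz2 stood at 172 against 111 CPM, and at 45183 CPM in the 399 Spp1-high alveolar macrophages. Spp1 itself was at 27772 CPM in the Spp1-high fibroblasts and at 15154 CPM in those macrophages. Ptprc is at 0 by the gate. The part of macrophage RNA or of doublets in these cells was not tested. Lpl, at 965 against 295 CPM, and Cd63, at 1356 against 879 CPM, were higher in the Spp1-high fibroblasts, and Apoe was lower, at 891 against 2035 CPM. Col1a1 (5172 against 3205 CPM), Fn1 (5341 against 2431 CPM), Tnc (1137 against 352 CPM), Timp1 (2499 against 432 CPM) and Cthrc1 (418 against 114 CPM), all genes of matrix or its turnover, were higher in the same description. Postn (268 against 150 CPM) and Runx1 (460 against 193 CPM) were higher too. Acta2 (1037 against 1331 CPM) and the gate gene Pdgfra (261 against 493 CPM) were lower. The leading genes included Tnfrsf11b (131 against 4.77 CPM), which encodes the decoy receptor osteoprotegerin, Grem1 (222 against 16.6 CPM), a BMP antagonist, and Inhba (246 against 31.2 CPM), a chain of activin. Median depth was 30048 UMIs in the Spp1-high and 17519 UMIs in the other fibroblasts.

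In the other non-immune gates, edgeR called 0 members in endothelial cells, where 0.0505% of 13854 genes were called, and 0 in epithelial cells (0.0% of genes, with 871 or 6.99% under an unadjusted p of 0.05 and 19 by DESeq2). In endothelial cells Fabp5 stood at 50.9, 48.2, 75.9 and 77.1 CPM (log2 fold change 0.65, SE 0.10, adjusted p = 0.0911) and Lpl at 0.55 (SE 0.13, adjusted p = 0.183), and with no filter the adjusted p were 0.00466 and 0.0201. Spp1 was at 2.08 (SE 0.79) there, a value that rests on the 5 cells of Tubb3-/- replicate 1. Of the fixed lists, the chemokine Ccl2 was called in endothelial cells, with a log2 fold change of -2.54 (SE 0.15, adjusted p = 0.00731).

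The genes most like Spp1 in level over the 28 sums of 4 mice and 7 gates, by Pearson's r of log2(CPM + 1) among 9693 genes, were Axl (0.88), a receptor for apoptotic cells, Sh3pxd2b (0.88), Gpnmb (0.87), the lysosomal phospholipase Pla2g15 (0.86) and Lpl (0.85). Those most like Gpnmb were Tmem86a (0.95), Dab2 (0.95), Gusb (0.94), Sh3pxd2b (0.94) and Hexa (0.94), of which Gusb and Hexa are lysosomal enzymes. The 28 points share mice and libraries, and the r values describe differences between gates more than between mice. Within the 343 interstitial macrophages, the mean of the 4 within-mouse r was highest for Spp1 with Atp6v0d2 (0.69), Fabp5 (0.61), Gpnmb (0.61), Ctsd (0.57) and Cd200r4 (0.55), and for Gpnmb with Atp6v0d2 (0.77), Fabp5 (0.72), Syngr1 (0.66), Ctsd (0.65) and Pld3 (0.62). Atp6v0d2, Fabp5 and Ctsd stood on both lists. Cells of a mouse share a library and differ in depth. Arg1 fell under the minimum level for both measures. Among pairs of members over the 28 sums, r ran from 0.15 for Cd9 with Apoe to 0.87 for Spp1 with Gpnmb.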

How the data were processed

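The counts were deposited by the authors as UMIs per gene and cell for each tagged library, made with Cell Ranger 7.1.0 on mm10 with an added Cre gene; they are whole numbers with no normalization. The mice are the biological replicates of the labels. Tag counts, 26.2% to 36.4% of all UMIs of a library, were set aside.

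Cells with 200 to 7500 genes and at most 15% mitochondrial UMIs were kept, and doublets were removed per pool with Scrublet (scanpy 1.11.5, Python 3.11.15), which marked 5.19% of the whole-cell and 6.61% of the mural cell-enriched cells; its log option was chosen after the default had marked almost none. Cells were gated by the UMIs named in the report, in the order given there; 1163 cells passed more than 1 immune gate. UMIs were summed per mouse and gate over both libraries, and the sums were tested with edgeR 4.0.16 (R 4.3.3; filterByExpr, TMM, quasi-likelihood F test). Adjusted p-values follow Benjamini and Hochberg over every gene that passed the filter, and a gene under 0.05 was called. DESeq2 1.42.0 was an alternative, as were no filter, the whole-cell libraries alone, doublets kept, cells of only 1 gate, at least 2 UMIs of a lineage gene, each mouse left out and a replicate block. The gate at 5 UMIs of Ear2 and Plet1, the mural cell-enriched libraries alone, the Spp1 limits of 100 UMIs and of 5000 CPM and the Spp1-high cells were added after seeing the data. Fit scripts were tested on simulated data.

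All 9 members were named in every gate. From the fixed lists, up to 3 called genes with the largest change were named, and other genes are marked as chosen after their values were seen; leading genes of Spp1-high cells were chosen by those values. Members and lists were chosen with earlier results of these data known. Intervals and floors cover counting error only, and a floor is 3 UMIs per sum. Whether the counting used strand is not given in the sources used here.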

Additional observations from a re-analysis of the deposited data

Results flagged for a closer look

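Where the level averaged 10 CPM or more in both gates, both Tubb3-/- mice were above both WT mice in one gate and below in another for 3 members; these differences between gates were not tested. Under that level, Trem2 (3.19 CPM in WT against 2.61 CPM in Tubb3-/- endothelial cells, 4.47 against 1.34 CPM in epithelial cells) and Arg1 (1.72 against 0.448 CPM in epithelial cells) also lay opposite to their order in alveolar macrophages. Spp1 had a log2 fold change of 1.53 in alveolar macrophages and -0.30 in monocytes, a gap of 1.83, and the gap between monocytes and fibroblasts (2.75) was -3.04. Monocyte levels of Spp1, 87.6 to 115 CPM, lie within or just under those of lymphocytes, 89.4 to 127 CPM. Apoe had a log2 fold change of 0.64 in alveolar macrophages and -0.35 in fibroblasts, a gap of 0.99, and of 0.88 in monocytes, a gap of 1.23 to fibroblasts. Cd9 had a log2 fold change of -0.59 in monocytes and 0.13 in epithelial cells, a gap of -0.72.

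Igha, an antibody heavy chain gene that was chosen after its value was seen, was the only gene called in the interaction of genotype with the 2 macrophage gates, with a difference of 6.41 (SE 0.58, adjusted p = 0.0243, edgeR). It stood at 892 CPM in the alveolar gate of WT replicate 1 and at 6.28 to 8.67 CPM in the other 3 mice, and at 0 to 5.44 CPM in the interstitial gate, so the call rests on 1 mouse.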

How the results depend on the processing

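Of 655 alternative values of the members, 563 kept their direction and side of the threshold, 47 moved past it, 11 fell short of it and 34 reversed; where no cause is named, the cause was not tested. The counts of called genes moved most. With DESeq2 they were 96 in alveolar macrophages, 24 in monocytes, 28 in lymphocytes, 184 in endothelial cells, 19 in epithelial cells, 846 in fibroblasts, 332 in all Ptprc-positive cells, and 11 and 24 in the interactions of interstitial with alveolar macrophages and with monocytes. With no filter they were 205 in interstitial macrophages, 50, 401, 444, 57, 650 and 62 in monocytes, lymphocytes, endothelial, epithelial, fibroblast and all Ptprc-positive sums, and 245 and 308 in the interactions. The whole-cell libraries alone gave 0 in monocytes, 2 in endothelial cells, 2 in fibroblasts, 4 in all Ptprc-positive cells and 1671 between the macrophage gates, with fewer cells. Doublets kept gave 0 in monocytes and 4 in endothelial cells. Cells of exactly 1 gate gave 22 in monocytes, 1 in all Ptprc-positive cells, and 3 and 43 in the interactions. The 5-UMI gate gave 1 in monocytes and 78 in the interaction with monocytes, and 2 UMIs of the lineage gene gave 182 in endothelial cells.

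With replicate number as a block, 2 genes were called in alveolar macrophages, 35 in monocytes, 11 in lymphocytes, 118 in endothelial cells, 27 in epithelial cells, 1261 in fibroblasts and 81 in all Ptprc-positive cells. Under the block, Spp1 (adjusted p = 0.0212), Lpl (0.0249) and Cd63 (0.0477) were called in fibroblasts, Spp1 (0.0482) and Trem2 (0.0483) in all Ptprc-positive cells and Fabp5 (0.0445) in endothelial cells; Lpl in all Ptprc-positive cells turned to 0.035. Deviations of same-numbered mice correlated at 0.117 to 0.621 over genes, and Xist shows that same-numbered mice were alike in sex, but there are only 2 pairs and no label gives a shared litter, batch or day.

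Without each mouse in turn, counts ran from 0 to 4 in alveolar macrophages, 10 to 144 in interstitial macrophages, 0 to 431 in monocytes, 0 to 33 in lymphocytes, 0 to 420 in endothelial cells, 0 to 94 in epithelial cells, 0 to 1275 in fibroblasts, 0 to 10 in all Ptprc-positive cells, and 28 to 226 and 0 to 99 in the interactions. Members that reversed ran from -0.27 to 0.074 (Cd9) and -0.48 to 0.35 (Lpl) in alveolar macrophages; -0.32 to 2.76 (Spp1), -1.40 to 3.39 (Arg1), -0.21 to 0.41 (Gpnmb), -0.30 to 0.20 (Cd9) and -0.66 to 0.12 (Apoe) in interstitial macrophages. In fibroblasts they ran from -0.59 to 0.22 (Arg1), -0.14 to 0.89 (Gpnmb), -0.45 to 0.23 (Fabp5) and -0.055 to 0.63 (Cd9), and in all Ptprc-positive cells from -0.32 to 0.093 (Cd9) and -0.40 to 0.47 (Lpl). Between the macrophage gates Arg1 ran from -0.56 to 1.02, and the interactions from -1.32 to 0.63 (Spp1) and -3.18 to 1.15 (Arg1). Shares of interstitial cells differed by -5.51 to 1.52 points (Spp1) and -1.92 to 0.49 (Arg1).

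Other values also reversed. In interstitial macrophages Arg1 was 0.33 and Cd9 0.033 with the 5-UMI gate, Gpnmb -0.10 in cells of 1 gate, and Cd9 0.21 and Apoe 0.39 in the whole-cell libraries. In the whole-cell fibroblasts Gpnmb was -0.13 and Cd9 -0.28. Endothelial Spp1, at 2.08 otherwise, was -0.27 with 2 UMIs of Cdh5. Between the macrophage gates Spp1 was 0.039 in cells of 1 gate, and in the whole-cell libraries the interactions of Spp1 and Trem2 were 0.82 and 0.15. Genotype differences in interstitial shares were 1.23 (Spp1) and 4.55 points (Arg1) unthinned, and 13.9 and 0.051 in the whole-cell libraries. Depth limits the rarest values, such as monocyte Arg1 with 0 or 1 UMI per mouse.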

Other observations

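Ptprc-positive cells outside the 4 immune gates held 20.1% of the Arg1 UMIs of the whole-cell libraries. Arg1 was found in 109 of these cells, 22, 27, 29 and 31 in WT replicates 1 and 2 and Tubb3-/- replicates 1 and 2, with 361 UMIs in all. Genes in front in these cells, against the 2241 cells of the same kind without Arg1, were the chemokine Ccl1 (1159 against 15.8 CPM), the cytokines Csf2 (416 against 4.12 CPM) and Il5 (503 against 8.16 CPM), the neuropeptide gene Calca (664 against 12.5 CPM), and Areg (1223 against 37.7 CPM), an EGF receptor ligand. Each of the 5 was ranked by these values, so they are a description with no test. The level of Arg1 in all other Ptprc-positive cells was 11.8 and 20.7 CPM in WT and 10.6 and 18.7 CPM in Tubb3-/- mice, with overlap of the genotypes. Spp1 stood there at 200 and 153 CPM in WT against 3130 and 801 CPM in Tubb3-/- mice, with 1, 1, 12 and 3 Spp1-high cells. Of the 9 members, 3 (Spp1, Cd63 and Lpl) were higher in both Tubb3-/- mice, 2 (Trem2 and Cd9) were lower in both and 4 overlapped. These cells were not tested by genotype, and the share of all genes in such an order was not counted. The counts of members in each order are therefore not a result about the members.

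Ptprc-negative cells with none of the 3 lineage genes held 43 Spp1-high cells, 3 and 4 in WT and 24 and 12 in Tubb3-/- mice, and their Spp1 level was 171 and 266 CPM in WT against 1240 and 835 CPM in Tubb3-/- mice. Cells with more than 1 lineage gene had 98.1, 2198, 5174 and 2051 CPM of Spp1 in the same order of mice.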
